A study of Mus musculus with 4 samples.

Results

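Imprinted genes are genes of which mainly the maternal or the paternal copy is transcribed. A list of 32 such mouse genes was followed in DPPIV- and DPPIV+ fibro-adipogenic progenitors (FAPs) of skeletal muscle. The list was named from general knowledge of imprinting, but with earlier results of these data known. All 32 were among the 24421 gene symbols of the table, and 24 of them were among the 11588 genes with enough reads to be tested. FAPs are stromal cells that support muscle repair and can become fibroblasts or adipocytes, and DPPIV is the surface peptidase encoded by Dpp4.

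The study asked which FAPs form the niche of self-renewing resident macrophages of muscle. It compared 4 bulk RNA sequencing libraries, a DPPIV- and a DPPIV+ library from each of 2 wild-type mice. Both mice had received a CSF1R inhibitor, which depletes macrophages, for 3 weeks and then a regular diet for 3 days, so both groups carry this treatment and no untreated FAPs were compared. Live CD31- CD45- Sca1+ cells were sorted by DPPIV. The tissue was labelled tibialis anterior, whereas the protocol describes both hindlimbs, and the age and sex of these 2 mice were not given in the sources used here. The animal with the lower label number is mouse 1 below, and the other is mouse 2.

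In an imprinted gene, a methyl mark set on DNA in the egg or the sperm silences or frees the copy from that parent after fertilization. Most imprinted genes lie in clusters, in which a control region acts on several genes, and long noncoding RNAs of a cluster are often made from the opposite parental copy to its protein-coding genes. Many of them act on growth of the fetus and placenta and fall in level after birth, and several, such as Dlk1, Igf2, H19, Peg3 and Cdkn1c, are known from progenitor cells. The libraries did not tell the parental copies apart, so the values below are the sum of both copies and say nothing of imprinting itself.

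The promoters of 4 genes are shown, with every CG, the site of the methyl mark, in capitals. Dlk1 and Dio3 moved farthest, Peg3 shares its promoter region with another member, and Plagl1 is a member that was higher in DPPIV+ FAPs. Each window runs from 250 bases before to 50 bases after the transcription start in RefSeq on GRCm38.p6. RefSeq windows were found for 26 of the 32 members, 41 windows in all, and held a median of 13 CG against 7 in all 32851 mouse windows.
Dlk1, chr12:109452573-109452872, plus strand: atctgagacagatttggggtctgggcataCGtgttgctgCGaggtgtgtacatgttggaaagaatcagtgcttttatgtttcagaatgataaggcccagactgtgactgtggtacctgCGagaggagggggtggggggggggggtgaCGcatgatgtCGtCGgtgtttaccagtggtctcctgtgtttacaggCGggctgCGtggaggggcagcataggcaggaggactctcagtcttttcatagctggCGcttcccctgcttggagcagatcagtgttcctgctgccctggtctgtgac
Dio3, chr12:110278980-110279279, plus strand: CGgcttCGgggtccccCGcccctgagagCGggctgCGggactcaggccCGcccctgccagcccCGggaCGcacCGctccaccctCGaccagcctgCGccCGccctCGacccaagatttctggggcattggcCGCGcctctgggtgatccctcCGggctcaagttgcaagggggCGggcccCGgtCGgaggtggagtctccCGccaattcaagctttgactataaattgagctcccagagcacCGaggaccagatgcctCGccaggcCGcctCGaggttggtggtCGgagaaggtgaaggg
Peg3, chr7:6730370-6730669, minus strand: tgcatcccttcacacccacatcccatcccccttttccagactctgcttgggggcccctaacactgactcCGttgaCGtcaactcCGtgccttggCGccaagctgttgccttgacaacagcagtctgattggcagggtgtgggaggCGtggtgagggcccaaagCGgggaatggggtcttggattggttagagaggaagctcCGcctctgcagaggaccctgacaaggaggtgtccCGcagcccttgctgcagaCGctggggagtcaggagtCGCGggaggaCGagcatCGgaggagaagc
Plagl1, chr10:13090582-13090881, plus strand: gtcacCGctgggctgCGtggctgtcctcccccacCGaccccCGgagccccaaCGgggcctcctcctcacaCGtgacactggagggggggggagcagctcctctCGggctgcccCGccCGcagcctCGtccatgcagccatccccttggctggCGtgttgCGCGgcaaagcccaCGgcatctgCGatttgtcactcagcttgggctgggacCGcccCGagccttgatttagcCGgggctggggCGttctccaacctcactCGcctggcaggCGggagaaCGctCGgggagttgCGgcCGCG
The Dlk1 window held 9 CG and the Dio3 window, from the other end of the same cluster, 25. The Peg3 window held 13 and shared 263 of its bases with the window of Usp29, which starts 164 bases away on the opposite strand. The Plagl1 window held 26. At least 15 CG stood in 19 of the 41 member windows (46.3%) and in 34.6% of all windows. TGCCGC, the letters that the imprint-keeping protein ZFP57 reads when methylated, was searched on both strands and stood in 9 of the 41 windows (22%), those of 8 genes, and in 11.6% of all windows. Of the windows shown, it stood once in that of Plagl1. Alternative promoters of a gene can overlap, and the match describes the letters only.

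H19 and Mest, which were lower in DPPIV+ FAPs, carry microRNA hairpins on their own strand, and the mature sequences are shown for that reason, with the seed (bases 2 to 8) in capitals.
mmu-miR-675-5p: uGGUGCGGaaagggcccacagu
mmu-miR-675-3p: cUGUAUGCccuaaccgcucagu
mmu-miR-335-5p: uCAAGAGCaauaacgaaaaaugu
mmu-miR-335-3p: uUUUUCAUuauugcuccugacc
The miR-675 pair lies in H19 and the miR-335 pair in Mest, and the 4 seeds all differ. The RefSeq table, which is not complete, lists a further 14 hairpins within Mirg and 3 within Rian. Mature microRNAs were not measured in these libraries.

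Library totals ran from 18240110 to 20879405 reads on genes. A gene without reads could have been as high as 0.143 to 0.166 CPM (reads scaled to a common library size, after normalization), the level of 3 reads in a library, for counting error only. Dpp4, the gene of the sort, had 89.6 and 39.6 CPM in the DPPIV- libraries of mouse 1 and mouse 2, against 727 and 574 CPM in the DPPIV+ libraries. FAP markers summed to 87300 and 85000 CPM in the DPPIV- libraries and to 73600 and 74800 CPM in the DPPIV+ libraries. Myofibre markers summed to 48.1 to 75.7 CPM, and of 5 adipocyte markers Lep had no read and Adipoq 1 read. In bulk RNA, fewer cells that express a gene and less of its RNA per cell cannot be told apart.

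In DPPIV+ FAPs, 10 of the 24 imprinted genes tested were lower and 4 were higher than in DPPIV- FAPs. The lower genes were Dlk1, Dio3, H19, Mest, Zim1, Airn, Peg10, Peg3, Igf2r and Cdkn1c, from 8.44-fold for Dlk1 to 1.18-fold for Cdkn1c. The higher genes were Slc38a4, Asb4, Ppp1r9a and Plagl1, from 1.69-fold to 1.29-fold. Both libraries of a group lay beyond both of the other for all 14. Counted over all 24 irrespective of the test, this was so for 12 lower and 5 higher genes (50% and 20.8%), against 28.5% and 27.8% of all genes tested. Dlk1 and Dio3 entered the test only through their DPPIV- libraries. Without them, 10 of 22 were lower in this way (45.5%) and 5 higher (22.7%).

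The test was edgeR's quasi-likelihood F test with mouse as a block, two-sided, and a gene was called at a Benjamini-Hochberg adjusted p under 0.05 over all genes tested. Lower calls were 41.7% of the imprinted genes against 17.2% of all genes tested, and higher calls 16.7% against 15.9%. The median log2 fold change was -0.19 over the 24 genes and -0.00 over all genes. Dlk1 and Dio3 passed the filter of 2 CPM in at least 2 libraries only through their DPPIV- libraries, so they had to differ. Without them, 8 of 22 were lower (36.4%) and 4 higher, and the median was -0.14. DESeq2 called 8 lower and 2 higher, against 8.59% and 7.97% of all genes, and all 10 were called in the same direction by edgeR. Without Dlk1 and Dio3, DESeq2 called 6 of 22 lower (27.3%). Against a fold change of 1.5, edgeR called Dlk1, Dio3, H19 and Mest lower, 16.7% of the 24 against 5.66% of all genes, and 0 higher against 3.76%. Without Dlk1 and Dio3 this left 2 of 22 lower (9.09%).

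**Figure D1:**
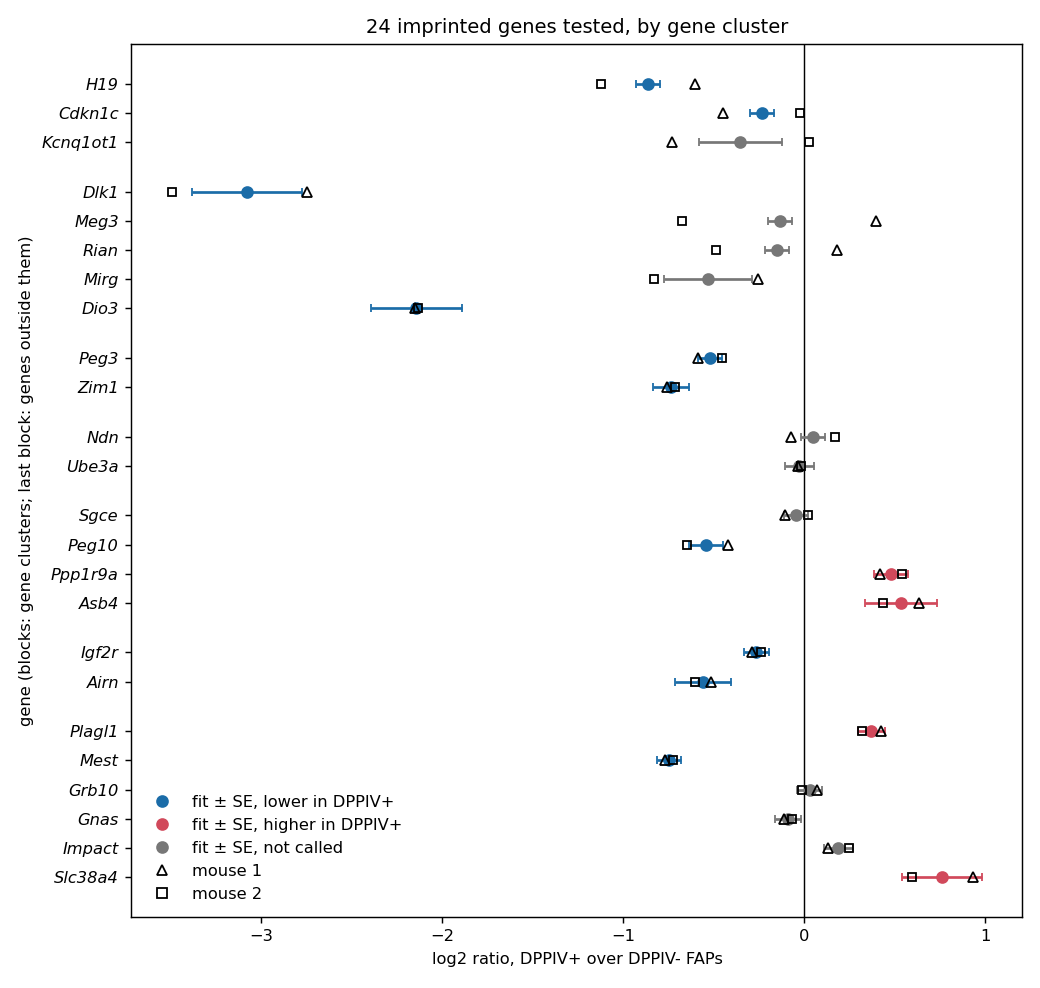
Log2 ratio of DPPIV+ over DPPIV- FAPs (x axis) for the 24 imprinted genes tested (y axis, in blocks by gene cluster). Filled circles are the fitted value with its SE, coloured by call, and open triangles and squares are mouse 1 and mouse 2. Dlk1 and Dio3 lie at -3.08 and -2.14, the other 22 genes between -0.86 and 0.76, and the mice fall on opposite sides of 0 for Meg3 and Rian.

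The Dlk1-Dio3 cluster on mouse chromosome 12 held the members with the greatest differences, Dlk1 and Dio3. Both passed the filter only through their DPPIV- libraries, so they had to differ. Their p-values below add no separate support for a fall. Dlk1 (ENSMUSG00000040856.17, GRCm38 chr12:109452823-109463336, plus strand) encodes a transmembrane protein related to the Notch ligands that holds preadipocytes undifferentiated and is made from the paternal copy. It had 5.63 CPM in mouse 1 and 5.61 CPM in mouse 2 in DPPIV- FAPs (118 and 110 reads). In DPPIV+ FAPs it had 0.832 and 0.493 CPM (15 and 9 reads). Both DPPIV+ libraries were far below both DPPIV- libraries, with a log2 fold change of -3.08 ± 0.30 (SE; edgeR adjusted p = 8.07e-23, DESeq2 adjusted p = 9.15e-08).

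Dio3 (ENSMUSG00000075707.5, chr12:110279068-110281097, plus strand), the deiodinase that inactivates thyroid hormone, starts 826 kb from Dlk1 and is made mainly from the paternal copy. In DPPIV- FAPs it had 6.91 CPM in mouse 1 and 6.73 CPM in mouse 2. In DPPIV+ FAPs it had 1.55 and 1.53 CPM. The groups did not overlap, and the log2 ratio was nearly the same in both mice, -2.15 in mouse 1 and -2.13 in mouse 2. The log2 fold change was -2.14 ± 0.25 (SE; edgeR adjusted p = 2.01e-16, DESeq2 adjusted p = 5.59e-06).

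The noncoding RNAs between Dlk1 and Dio3, made from the maternal copy, were not called. Meg3, which starts 88.2 kb from Dlk1, had 96.4 and 134 CPM in DPPIV- FAPs and 127 and 84.2 CPM in DPPIV+ FAPs of mouse 1 and mouse 2. Its DPPIV+ library was thus the higher of the pair in mouse 1 and the lower in mouse 2 (log2 ratios 0.40 and -0.67). Rian, a host of small nucleolar RNAs, went the same way, with 115 and 140 CPM in DPPIV- FAPs and 130 and 100 CPM in DPPIV+ FAPs (log2 ratios 0.18 and -0.49). Mirg, a host of microRNAs, had 3.77 and 4.28 CPM against 3.16 and 2.41 CPM, and its log2 fold change of -0.53 ± 0.24 (SE) did not pass the test (edgeR adjusted p = 0.0784). Rtl1, a retrotransposon-derived gene of the placenta on the opposite strand, had 0 to 2 reads per library.

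Within the cluster, Meg3 and Rian were more abundant than the called genes. Per kilobase of exon, DPPIV- FAPs held 7.02 ± 0.998 CPM of Rian and 6.36 ± 1.47 CPM of Meg3, against 3.36 ± 0.0626 CPM of Dio3 and 0.993 ± 0.00186 CPM of Dlk1 (mean ± SD, n = 2). In DPPIV+ FAPs, Rian stood at 6.31 ± 1.16, Meg3 at 5.86 ± 1.67, Dio3 at 0.759 ± 0.00655 and Dlk1 at 0.117 ± 0.0422 CPM per kilobase. Rian and Meg3 did not differ beyond their spread in either group.

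**Figure D2:**
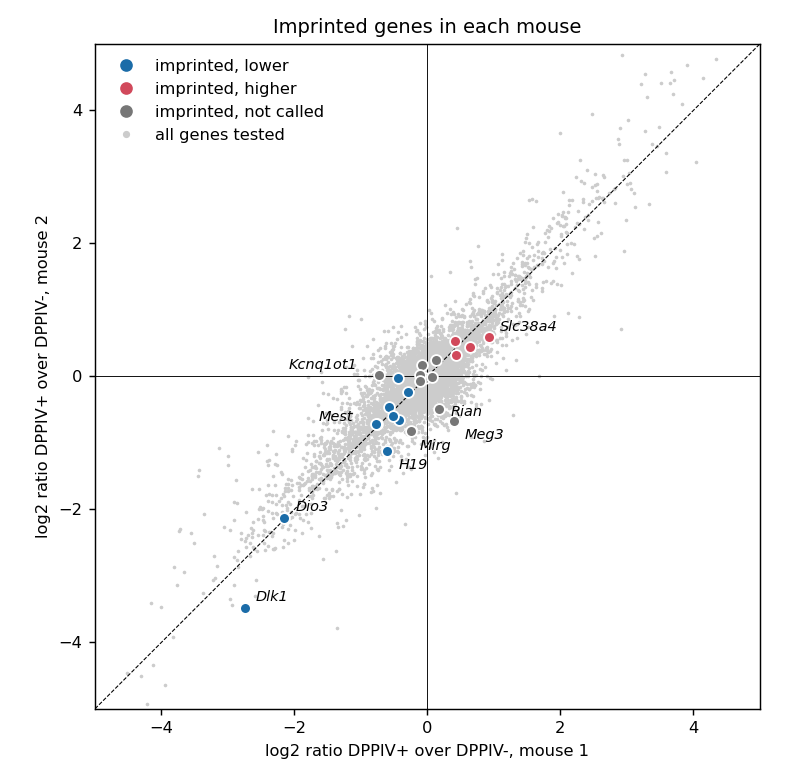
Log2 ratio of DPPIV+ over DPPIV- FAPs in mouse 1 (x axis) and in mouse 2 (y axis), with the 24 imprinted genes tested in colour by call and all genes tested in grey, of which 13 lie outside the axes. On the dashed line the mice have equal ratios, and Meg3 and Rian lie to the right of 0 in mouse 1 and below 0 in mouse 2.

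The Igf2-Kcnq1 region on chromosome 7 holds 2 neighbouring clusters of growth genes. H19 (ENSMUSG00000000031.16, chr7:142575529-142578143, minus strand), a noncoding RNA of the maternal copy, had 255 and 391 CPM in DPPIV- FAPs of mouse 1 and mouse 2. It had 168 and 180 CPM in DPPIV+ FAPs, below both DPPIV- libraries. The fitted log2 fold change was -0.86 ± 0.07 (SE; edgeR adjusted p = 3.7e-35, DESeq2 adjusted p = 0.00759), with -0.60 in mouse 1 and -1.12 in mouse 2. Per kilobase of exon, H19 stood above all other members in DPPIV- FAPs, at 131 ± 38.9 CPM, and its spread reached Gnas at 107 ± 1.79 CPM (mean ± SD, n = 2).

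Igf2, the growth factor that shares enhancers with H19 and is made from the paternal copy, starts 88.7 kb away and is not among the 32 genes. It had 53.7 and 59.9 CPM in DPPIV- FAPs and 23.5 and 19.2 CPM in DPPIV+ FAPs. It fell with H19 in both mice, at a log2 fold change of -1.41 ± 0.08 (SE; edgeR adjusted p = 1.15e-61, DESeq2 adjusted p = 1.32e-15). In the annotation used here, 62.8% of its exon bases also belong to the gene Gm49394.

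Cdkn1c, the cell cycle inhibitor p57, had 176 and 168 CPM in DPPIV- FAPs and 129 and 166 CPM in DPPIV+ FAPs. The difference lay in mouse 1, at a log2 ratio of -0.45 against -0.02 in mouse 2. The fitted log2 fold change was -0.23 ± 0.07 (SE; edgeR adjusted p = 0.00201), and it was not called by DESeq2 (adjusted p = 0.24) or by edgeR without the mouse block (adjusted p = 0.288). An antisense gene covers 30.7% of its exon bases, and the strand setting of the counting was not given. Kcnq1ot1, the noncoding RNA of the paternal copy that silences Cdkn1c and its neighbours, had 5.15 and 3.98 CPM against 3.1 and 4.05 CPM, and the groups overlapped. Phlda2, a brake on growth of the placenta, had 0 reads in all 4 libraries.

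In the Peg3 cluster, at the other end of chromosome 7, both genes tested fell. Peg3 (ENSMUSG00000002265.16, chr7:6703892-6730431, minus strand), a zinc finger protein of the paternal copy known from muscle stem cells, had 99.7 and 105 CPM in DPPIV- FAPs and 66.5 and 76.3 CPM in DPPIV+ FAPs. Zim1, a zinc finger gene of the maternal copy that starts 34 kb away, had 28.4 and 31.1 CPM against 16.8 and 19 CPM. The groups did not overlap for either gene. The log2 fold change was -0.52 ± 0.07 for Peg3 (SE; edgeR adjusted p = 4.6e-14, DESeq2 adjusted p = 1.7e-04) and -0.73 ± 0.10 for Zim1 (SE; 2e-12 and 6.74e-04). Usp29, whose promoter window is shared with Peg3, had 1 read in each library.

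Mest, an enzyme of the hydrolase family tied to adipocyte growth and made from the paternal copy, had 145 and 150 CPM in DPPIV- FAPs and 85.1 and 91.2 CPM in DPPIV+ FAPs. The mice agreed closely, at log2 ratios of -0.77 and -0.72, and the fitted value was -0.74 ± 0.07 (SE; edgeR adjusted p = 9.68e-28, DESeq2 adjusted p = 3.06e-10). Copg2 on the opposite strand shares 23.1% of the exon bases of Mest, and had 31.3 and 29.3 CPM in DPPIV- FAPs and 30.3 and 29.6 CPM in DPPIV+ FAPs, with no call.

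Igf2r, the maternal-copy receptor that carries IGF2 to the lysosome for breakdown, had 494 and 544 CPM in DPPIV- FAPs and 405 and 461 CPM in DPPIV+ FAPs. The highest DPPIV+ library lay below the lowest DPPIV- library, and the log2 fold change was -0.26 ± 0.07 (SE; edgeR adjusted p = 5.55e-04, DESeq2 adjusted p = 0.0219). Without the mouse block, Igf2r was not called (adjusted p = 0.133). Airn, the antisense noncoding RNA of the paternal copy that starts inside Igf2r, had 10.8 and 12 CPM against 7.54 and 7.94 CPM. It fell in the same direction as Igf2r, at -0.56 ± 0.16 (SE; edgeR adjusted p = 0.00165), though DESeq2 did not call it (adjusted p = 0.185).

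The Peg10 cluster on chromosome 6 was the cluster in which genes were called in both directions. Peg10, a retrotransposon-derived gene of the paternal copy needed for the placenta, had 26.8 and 35.6 CPM in DPPIV- FAPs and 20 and 22.7 CPM in DPPIV+ FAPs. It fell by 0.54 on the log2 scale, with an SE of 0.09 (edgeR adjusted p = 9.68e-08, DESeq2 adjusted p = 0.0202). Sgce, the sarcoglycan gene that starts 99 bases from Peg10 on the opposite strand, had 185 and 166 CPM against 171 and 168 CPM and was not called (log2 fold change -0.04 ± 0.07, SE). The neighbours in start position thus had unlike values.

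Ppp1r9a, which encodes the actin-binding protein neurabin and starts 156 kb from Peg10, had 23.5 and 20.5 CPM in DPPIV- FAPs and 31.5 and 29.7 CPM in DPPIV+ FAPs. The fitted log2 change was 0.48 ± 0.09 (SE; edgeR adjusted p = 2.72e-06, DESeq2 adjusted p = 0.0401). Asb4, which encodes a subunit of ubiquitin ligases, had 4.39 and 4.9 CPM against 6.82 and 6.63 CPM. Both DPPIV+ libraries were above both DPPIV- libraries, at 0.53 ± 0.20 (SE; edgeR adjusted p = 0.0255), but the call was lost with DESeq2 (adjusted p = 0.427) and without the mouse block (adjusted p = 0.0974).

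Plagl1, a zinc finger transcription factor of the paternal copy that slows cell growth, rose in both mice. It had 45.5 and 42.7 CPM in DPPIV- FAPs and 61.1 and 53.2 CPM in DPPIV+ FAPs, which gave a log2 difference of 0.37 ± 0.07 (SE; edgeR adjusted p = 2.23e-06, DESeq2 adjusted p = 0.0463). Slc38a4, an amino acid transporter, had 3.05 and 3.72 CPM against 5.82 and 5.64 CPM. Its log2 fold change of 0.76 ± 0.22 was the greatest of the higher members (SE; edgeR adjusted p = 0.00258), and DESeq2 did not call it (adjusted p = 0.214).

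**Figure D3:**
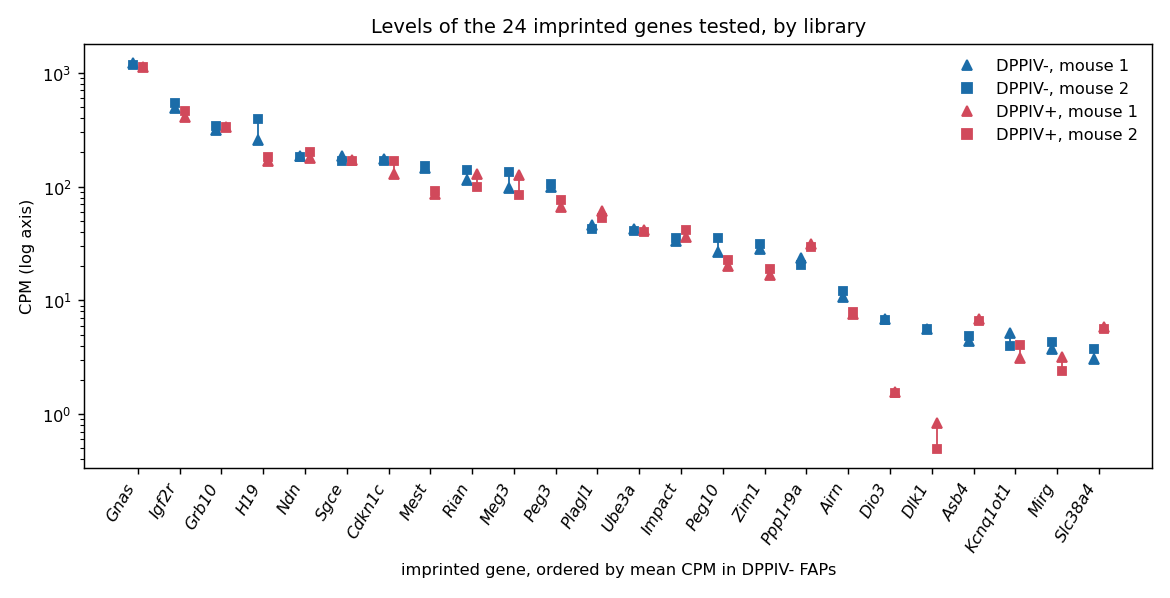
CPM on a log axis (y axis) of the 24 imprinted genes tested (x axis, ordered by their mean in DPPIV- FAPs) in each of the 4 libraries. Gnas lies highest at 1120 to 1210 CPM, and Dlk1 in DPPIV+ FAPs lowest at 0.493 and 0.832 CPM.

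The members that were not called included abundant genes. Gnas, the stimulatory G protein subunit whose locus makes several transcripts of unlike imprinting, had 1210 and 1180 CPM in DPPIV- FAPs and 1120 and 1130 CPM in DPPIV+ FAPs (fitted log2 change -0.09 ± 0.07, SE). Grb10, an adaptor that dampens insulin and IGF receptor signalling, had 314 and 338 CPM against 330 and 335 CPM (0.03 ± 0.07, SE). Ndn, or necdin, of the Prader-Willi region had 186 and 181 CPM against 177 and 203 CPM (0.05 ± 0.07, SE). Ube3a, a ubiquitin ligase of the same region that is made from both copies outside neurons, ran from 39.9 to 42.1 CPM over the 4 libraries (-0.03 ± 0.08, SE). Impact, a regulator of the translation control kinase GCN2, had 33 and 35 CPM against 36.1 and 41.6 CPM, and did not pass the test (0.19 ± 0.08, SE; edgeR adjusted p = 0.0606).

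Besides Phlda2, Rtl1 and Usp29, 5 members had too few reads to be tested. In the Prader-Willi region, Snrpn had 0 reads in all libraries and so did its partner symbol Snurf. Snurf shares 10% of the exon bases of Snrpn and Gm38393 27.3%, both on the same strand. How the counting treated reads in exons of several genes was not given, so these 0 counts do not show that the genes are silent. Magel2 had 4 and 4 reads in DPPIV- FAPs and 1 and 0 in DPPIV+ FAPs, and Mkrn3 had 9 and 9 against 14 and 10. Nnat, or neuronatin, had 3 and 3 reads against 2 and 1. Zdbf2 had 0 and 7 reads in DPPIV- FAPs and 11 and 19 in DPPIV+ FAPs.

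By the parental copy known for each gene, 6 of 12 paternal genes tested were lower and 2 higher. These were 50% and 16.7%, against 17.2% and 15.9% of all genes tested. Without Dlk1 and Dio3, which had to differ, 4 of 10 paternal genes were lower and 2 higher (40% and 20%), with a median log2 fold change of -0.20. Of 11 maternal genes tested, 4 were lower and 2 higher (36.4% and 18.2%), with a median of -0.15. Without Ube3a, which is made from both copies outside neurons, 4 of 10 were lower and 2 higher (40% and 20%), with a median of -0.19. Between the mice, irrespective of cell type, H19 and Peg10 were higher in mouse 2 (log2 difference 0.36 and 0.31), 8.33% of the 24 against 8.98% of all genes called between the mice by edgeR. DESeq2 called 0 of the 24 between mice, and 0 had an unadjusted p under 0.05 there, against 6 with edgeR.

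Other imprinted genes and neighbours in the same clusters were taken as a companion list of 50 genes, of which 31 were tested, and 5 were higher and 7 lower (16.1% and 22.6%, against 15.9% and 17.2% of all genes tested). Gpr1, a receptor for chemerin that starts 58.7 kb from Zdbf2, had 2.96 and 1.28 CPM in DPPIV- FAPs and 33.9 and 27.2 CPM in DPPIV+ FAPs. It was 14.4-fold higher (log2 fold change 3.85 ± 0.16, SE; edgeR adjusted p = 2.34e-129). The other higher genes were the AMP deaminase gene Ampd3 (0.90), the tryptophan tRNA synthetase gene Wars (0.54), Phactr2 (0.42) and Osbpl5 (0.16, not called by DESeq2). The lower genes were the transcription factor gene Klf14 (-2.24), Igf2 (-1.41), Begain (-1.15), the protease inhibitor gene Tfpi2 (-0.67), the tetraspanin gene Cd81 (-0.44), the decorin gene Dcn (-0.28) and the lipid flippase gene Atp10a (-0.17, not called by DESeq2). Begain neighbours Dlk1, and it had 9.44 and 12.1 CPM in DPPIV- FAPs against 4.55 and 5.15 CPM in DPPIV+ FAPs. Klf14 passed the filter only through DPPIV- FAPs.

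Of 22 factors tested that set or keep imprints, 2 were higher and 2 lower (9.09% each, against 15.9% and 17.2% of all genes). Yy1 (log2 fold change 0.22) and the histone methyltransferase gene Ehmt2 (0.18) were higher. The DNA demethylase gene Tet1 (-0.47) and Arid4a (-0.22) were lower. DESeq2 called 0 of the 22, against 7.97% of all genes higher and 8.59% lower. Dnmt1, which copies DNA methylation, had 39.7 and 41.3 CPM in DPPIV- FAPs and 44.5 and 46 CPM in DPPIV+ FAPs. Trim28, the corepressor recruited by ZFP57, ran from 111 to 125 CPM, and Zfp57 itself had 9 to 31 reads per library and was not tested.

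A list of partners of the members held growth factor, thyroid hormone, Notch receptor, cyclin, cyclin-dependent kinase and adenylyl cyclase genes. Of its 23 genes tested, 7 were higher and 10 lower (30.4% and 43.5%, against 15.9% and 17.2% of all genes). On the growth factor side, Igf1 had 345 and 440 CPM in DPPIV- FAPs and 158 and 212 CPM in DPPIV+ FAPs (fitted log2 change -1.09 ± 0.07, SE; edgeR adjusted p = 3.15e-55). Both ligands, Igf1 and Igf2, and the receptor substrates Irs1 (-0.54) and Irs2 (-0.17) were thus lower. Their signalling receptor gene Igf1r was higher, from 59.2 and 54.7 to 76 and 70.8 CPM (0.37 ± 0.07, SE; edgeR adjusted p = 5.19e-07).

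Dio2, the deiodinase that activates thyroid hormone, fell as Dio3 did. It had 86.9 and 115 CPM in DPPIV- FAPs and 26.3 and 36.6 CPM in DPPIV+ FAPs (fitted log2 change -1.68 ± 0.07, SE; edgeR adjusted p = 4.89e-118, DESeq2 adjusted p = 5.9e-36). Per kilobase of exon, Dio2 stood at 17.4 ± 3.4 and 5.42 ± 1.25 CPM in DPPIV- and DPPIV+ FAPs, above Dio3 in both. The amino acid and thyroid hormone transporter gene Slc16a10 was higher (0.60). Of the hormone receptor genes, Thra was higher (0.16) and Thrb lower (-0.40).

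Of the Notch receptor genes, Notch1 (log2 fold change -0.98) and Notch3 (-1.60) fell and Notch2 rose (0.79). Of the cyclins that Cdkn1c acts beside, Ccnd1 (0.84) and Ccnd3 (0.53) rose, and Ccnd2 was not called (-0.01). Adenylyl cyclase genes, which act after Gnas, were higher for Adcy9 (0.22) and lower for Adcy7 (-0.35). DESeq2 called 4 higher and 8 lower of the 23 partner genes (17.4% and 34.8%, against 7.97% and 8.59% of all genes). It did not call Irs2, Thra, Thrb, Slc16a10 or Adcy9. Of 10 proliferation genes tested, Top2a alone was called, as higher (10%, against 15.9% of all genes by edgeR). It had 11.6 and 11.4 CPM in DPPIV- FAPs and 21 and 16.9 CPM in DPPIV+ FAPs.

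**Figure D4:**
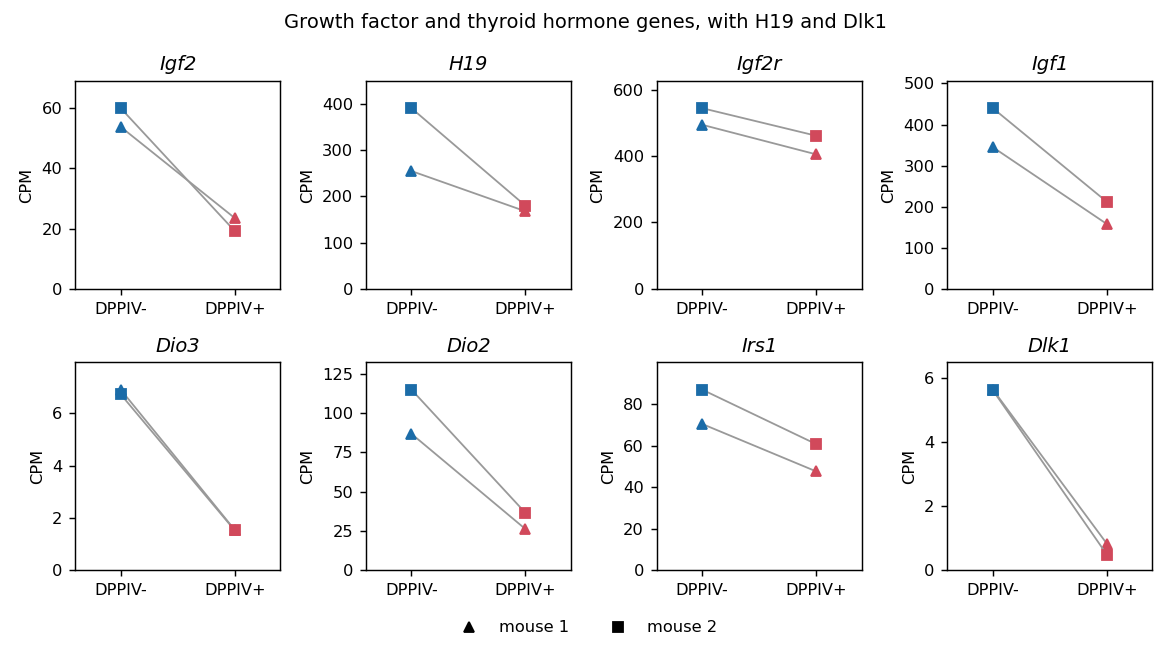
CPM (y axes, each from 0) of 8 genes called lower by edgeR, in DPPIV- and DPPIV+ FAPs, with grey lines joining the libraries of a mouse. Growth factor and thyroid hormone genes that were higher (Igf1r, Slc16a10 and Thra) or not called (among them Grb10) are not drawn. All 8 are lower in DPPIV+ FAPs in both mice, from Igf2r, at 494 and 544 against 405 and 461 CPM, to Dlk1, at 5.63 and 5.61 against 0.832 and 0.493 CPM.

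Of 8 FAP markers, Pdgfra (log2 fold change -0.38), Lum (-0.85), Col1a1 (-0.40), Dcn (-0.28) and Col1a2 (-0.22) were lower by edgeR and DESeq2. Ly6a (0.58), a gene of the sort, and Cd34 (0.52) were higher by both tools. These were 62.5% lower and 25% higher, against 17.2% and 15.9% of all genes by edgeR. Ptprc, another gene of the sort, was not called (-0.36). Markers of other cell types also differed between the groups. Of 6 mural cell markers, Rgs5, Cspg4, Notch3, Kcnj8 and Mcam were lower in DPPIV+ FAPs by edgeR (83.3%, against 17.2% of all genes tested). DESeq2 called 3 lower (50%, against 8.59%). Kcnj8 passed the filter only through DPPIV- FAPs, so it had to differ. The mural sum was 121 and 123 CPM in DPPIV- FAPs against 51.1 and 63.4 CPM in DPPIV+ FAPs. Of 5 tenocyte markers, Scx, Tnmd, Mkx and Fmod were higher (80%, against 15.9% of all genes tested). Scx passed the filter only through DPPIV+ FAPs, so it had to differ. Thbs4 was lower by edgeR but not by DESeq2, and its log2 ratio was -0.47 in mouse 1 and 0.08 in mouse 2. The tenocyte sum ran from 1790 to 2390 CPM in DPPIV- FAPs and from 1900 to 3760 CPM in DPPIV+ FAPs. Thbs4 made up most of the DPPIV- sums, at 1600 and 2090 CPM, against 1150 and 2210 CPM in DPPIV+ FAPs of mouse 1 and mouse 2. The DPPIV+ library of mouse 2 had the highest tenocyte sum and the lowest Meg3 and Rian. The DPPIV- library of mouse 2, with the next highest sum, had the highest Meg3 and Rian. Scx, Tnmd, Mkx and Fmod were each lower in that DPPIV- library than in both DPPIV+ libraries. Of 6 blood endothelial markers, 4 were lower by edgeR (66.7%, against 17.2% of all genes) and 0 by DESeq2 (against 8.59%). Tek was higher by both tools (16.7%, against 15.9% by edgeR and 7.97% by DESeq2). Among the 4, Pecam1, Kdr and Esam had log2 ratios of 0, 0.10 and -0.01 in mouse 2, and Cdh5 had -0.32. The endothelial sum of 187 to 255 and 463 to 506 CPM was mostly Tek. Of 5 macrophage markers tested, Csf1r, Adgre1 and Lyz2 were lower by edgeR (60%, against 17.2% of all genes) and 0 by DESeq2 (against 8.59%). The 6 macrophage markers listed summed to 174 to 295 CPM in DPPIV- FAPs and 167 to 183 CPM in DPPIV+ FAPs. Satellite cell markers summed to 130 and 131 against 60.8 and 67 CPM, with Vcam1 the highest of them in DPPIV- FAPs and Des in DPPIV+ FAPs, and Pax7 had 7 to 10 reads in each library. Glial markers summed to 15.5 to 20.4 and 12.3 to 17.9 CPM, with S100b lower, and adipocyte markers to 22.2 to 32.3 and 16.1 to 17.1 CPM, nearly all Fabp4. The part of these cells in the values of the imprinted genes was not tested.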

How the data were processed

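The 4 libraries held RNA of sorted DPPIV- and DPPIV+ FAPs, a pair from each of 2 mice. The authors aligned paired-end reads to mm10 with STAR, tallied them per annotated gene with RnaReadCounter, and deposited the whole-number counts without normalization for 24421 symbols. The annotation release and strand setting were not given in the sources used here, and the labels and the paper name different library kits. The DPPIV- libraries of mouse 1 and mouse 2 held 20879405 and 19196629 reads on genes, the DPPIV+ libraries 18240110 and 18525933.

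From these counts, a gene entered the test if 2 or more libraries reached 2 CPM, and cell types were compared with edgeR 4.0.16 (R 4.3.3, TMM normalization, quasi-likelihood F test, mouse as a block, Benjamini-Hochberg threshold 0.05). The model had 1 residual degree of freedom and the prior degrees of freedom were infinite, so the variance of a gene was that of the trend at its abundance. With 2 mice, p-values and SEs rest on a spread between these animals pooled over genes of like abundance. They do not measure how far the mice agreed on a single gene. The SE is the log2 fold change over the square root of F. Alternatives were DESeq2 1.42.0, no mouse block, RLE normalization, no filter, a filter of 2 CPM in 3 libraries, robust moderation, a test against a 1.5-fold change, and each mouse left out. The tests were checked on simulated counts.

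The mouse numbers in the labels pair the libraries, and the study's model held the animal. The differences between mice in the 2 cell types correlated at 0.44 over the genes tested, and genes are not independent of each other. Counts of same-group libraries differed by more than sampling noise (chi-square per degree of freedom 12.8 and 9.5). The members and lists were chosen with earlier results of these data known. Named were all 32 members, companion-list genes called with the same sign in both mice, Igf2, called markers and the sorting genes. Genes mentioned beyond this rule, among them Copg2, Snurf, Dnmt1, Trim28, Zfp57, Ccnd2 and Pax7, were chosen after their values were seen. A called gene of a companion list is not reported here by name. Positions, exon lengths and overlaps came from GENCODE M21 on GRCm38, matched by symbol for all 32 members, and sequences from RefSeq on GRCm38.p6. Which parental copy is active was taken from general knowledge.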

Additional observations from a re-analysis of the deposited data

How the results depend on the processing

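Of the 24 imprinted genes tested, all 24 kept their call or lack of one under RLE normalization, without a filter and under robust moderation, as did the 22 still tested with 2 CPM in at least 3 libraries, where Dlk1 and Dio3 drop out. DESeq2 lost the calls of Cdkn1c, Asb4, Airn and Slc38a4, which left 10 imprinted genes called, 2 of them higher. Over all genes it called 1918 instead of 3826, 923 higher and 995 lower, and it called 0 imprinted genes between mice. Without the replicate block, 11 imprinted genes were called, without Cdkn1c, Asb4 and Igf2r, and the counts fell to 2120 over all genes (1001 higher, 1119 lower) and from 33 to 21 in the companion lists. The blocked and unblocked fits agreed in direction for every called member. The test against a 1.5-fold change left 1092 genes called (436 higher, 656 lower), 4 imprinted genes, 0 higher and 4 lower, 11 companion genes, and 0 imprinted genes between mice. By its construction this test asks for greater changes. The causes of the other losses were not tested. Without a filter, Zdbf2 was also called higher (edgeR adjusted p = 0.0268), which made 5 higher members. That call rested on 0 and 7 reads in DPPIV- FAPs against 11 and 19 in DPPIV+ FAPs. The median log2 fold change of the imprinted genes was -0.15 with the stricter filter, for lack of Dlk1 and Dio3, and ran from -0.18 to -0.15 with each mouse left out, which left values and no test. No called member changed direction with either mouse left out. The call of Cdkn1c rested on mouse 1, since its log2 ratio without mouse 1 was -0.02. The 8 imprinted genes under the filter had at most 19 reads in a library, so their values were given as reads. Those with any reads were tested only in the fit without a filter.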
